A study of Homo sapiens with 6 samples.

Results

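The mitochondrial ribosomal protein genes were taken as all protein-coding genes of the deposited expression table whose symbol is MRPL or MRPS followed by a number. This gave 78 of 58735 genes (19951 of them protein-coding): 49 MRPL genes, named for the large subunit, and 29 MRPS genes, named for the small subunit. They lay on 21 chromosomes. RNA was sequenced from HCT116SCs, tumor sphere cells that were sorted for CD44 and CD326 (EPCAM) from HCT116, an established colorectal cancer cell line, and labelled WT for genotype. The NC group (n = 3 libraries) received negative control siRNA, and the siPSCA group (n = 3) received siRNA against PSCA, a surface protein of the Ly6 family. Both groups were grown without serum in medium with EGF, bFGF and B27, went through the same liposomal transfection, and were harvested after 48 h. All libraries are labelled as this 1 cell line, except that the titles of siPSCA 2 and siPSCA 3 carry other numbers after HCT. Which of the 3 listed PSCA siRNAs the libraries received is not given, and nothing says whether libraries of a group came from separate cultures, so the p-values measure the spread between these libraries, which may be technical.

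Mitochondria carry ribosomes of their own, which translate the few messenger RNAs of the mitochondrial genome, all of them for subunits of the respiratory chain and ATP synthase. The ribosomal RNAs are mitochondrial transcripts, whereas every protein of the mitoribosome is encoded in the nucleus, made in the cytosol and imported. Part of these proteins have bacterial relatives, and the others are found in mitochondria only. The small subunit decodes the messenger RNA, and the large subunit joins the amino acids and opens into an exit tunnel at the inner membrane.

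Of the 78 genes, 70 were matched to a promoter window of RefSeq on GRCh38.p14, which spans 250 bases before to 50 bases after the gene start given there. The windows of MRPL12, MRPS12 and MRPS34, the genes with the largest rises, and of MRPL42, the gene with the largest fall, are printed 5′ to 3′ on the strand of the gene, with capitals for each match, on either strand, to an ETS core (CCGGAAG), a YY1 core (AAGATGGC) or an NRF1 core (CGCATGCG). These are short motifs of 3 factors known for nuclear genes of mitochondrial proteins, and the ETS core ends with the letters AAG with which the YY1 core begins, which they shared in 0 of the 70 windows.
MRPL12, chr17:81703117-81703416, plus strand: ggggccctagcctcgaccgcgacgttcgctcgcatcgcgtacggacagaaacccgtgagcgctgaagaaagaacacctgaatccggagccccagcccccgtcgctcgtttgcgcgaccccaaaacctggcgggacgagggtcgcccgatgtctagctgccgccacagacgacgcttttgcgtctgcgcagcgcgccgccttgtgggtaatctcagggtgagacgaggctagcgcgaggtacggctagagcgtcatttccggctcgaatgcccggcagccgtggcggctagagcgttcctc
MRPS12, chr19:38930694-38930993, plus strand: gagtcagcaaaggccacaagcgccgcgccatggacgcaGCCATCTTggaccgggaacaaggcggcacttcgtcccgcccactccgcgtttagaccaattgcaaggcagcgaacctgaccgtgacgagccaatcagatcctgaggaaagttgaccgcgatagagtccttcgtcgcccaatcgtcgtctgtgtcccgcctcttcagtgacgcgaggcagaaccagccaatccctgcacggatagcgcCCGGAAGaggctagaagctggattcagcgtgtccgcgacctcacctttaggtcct
MRPS34, chr16:1773085-1773384, minus strand: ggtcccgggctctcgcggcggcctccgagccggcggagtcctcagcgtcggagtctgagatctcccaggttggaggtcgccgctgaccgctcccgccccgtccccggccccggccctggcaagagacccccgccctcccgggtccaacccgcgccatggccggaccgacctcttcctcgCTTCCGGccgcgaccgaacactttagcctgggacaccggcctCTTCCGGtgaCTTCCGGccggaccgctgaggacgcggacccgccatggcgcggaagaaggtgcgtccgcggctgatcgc
MRPL42, chr12:93467264-93467563, plus strand: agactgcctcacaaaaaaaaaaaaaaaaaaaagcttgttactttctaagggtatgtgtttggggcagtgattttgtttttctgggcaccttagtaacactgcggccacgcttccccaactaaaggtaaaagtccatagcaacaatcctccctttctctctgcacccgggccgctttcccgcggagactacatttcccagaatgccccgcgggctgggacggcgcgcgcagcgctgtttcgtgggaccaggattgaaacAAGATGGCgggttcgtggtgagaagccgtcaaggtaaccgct
MRPS34 had 3 ETS cores, MRPS12 had 1 ETS and 1 YY1 core, MRPL42 had 1 YY1 core, and the window of MRPL12 held none of these letters. The window of MRPS12 lies within the gene as the expression table places it (chr19:38930548-38933162), downstream of that start. Over the 70 windows, 29 (41.4%) held the ETS core, against 10.3% of all 35116 promoter windows and 20.6% of the windows of 8858 tested protein-coding genes. The YY1 core stood in 20 windows (28.6%, against 2.89% and 5.79%) and the NRF1 core in 3 (4.29%, against 2.02% and 4.08%). The letters TATAAA stood in 3 windows (4.29%, against 11.5% and 5.13%). The ETS core was found in 17 of 42 large-subunit windows and 12 of 28 small-subunit windows. The median log2 fold change, siPSCA minus NC, was 0.21 for genes with the ETS core and 0.17 for those without, and 0.13 with the YY1 core and 0.20 without.

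PSCA itself was covered by 4, 12 and 15 reads in the NC libraries and by 9, 9 and 7 in the siPSCA libraries, so the groups overlapped (adjusted p = 0.728, limma without a minimum FPKM) and a knockdown was not detectable at this depth. The groups therefore follow the labels alone. Reads on genes ranged from 16099716 to 17302219 per library. The third NC library stood apart, at a distance of 0.41 and 0.39 (root mean square of log2 differences) from the other NC libraries, which were 0.27 apart. Transcripts of the sort markers CD44 and EPCAM and of the epithelial genes KRT8, KRT18, KRT19 and CDH1 were at a mean FPKM of at least 19.5 in both groups. Of the sort markers CD44 fell from 82.6 ± 4.36 to 60.7 ± 1.51 FPKM (SD, n = 3; adjusted p = 0.00193, limma), and EPCAM was at 107 ± 14.4 and 94.97 ± 2.10 FPKM (adjusted p = 0.199). CDH1 fell from 30.1 ± 2.04 to 19.5 ± 0.610 FPKM (adjusted p = 0.00134, limma), and of the intestinal stem cell markers PROM1 fell from 4.79 ± 0.404 to 2.86 ± 0.143 FPKM (adjusted p = 0.00206), whereas LGR5 and ASCL2 were at or near 0. KRT8 and KRT19 rose (log2 fold changes 0.22 and 0.25), and KRT18 was at -0.14 (adjusted p = 0.165, limma). With the GC and length trend described below removed, CD44 (-0.17), CDH1 (-0.61), PROM1 (-0.52) and KRT18 (-0.49) fell and no marker of these rose. The part of these markers in the results on the members was not tested. Leukocyte and endothelial markers were at or near 0 as well. Of 4 fibroblast markers only COL1A1 reached 1 FPKM, at 4.71 ± 1.20 in NC and 6.16 ± 0.303 in siPSCA.

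Levels are given as FPKM, reads scaled to the length of a gene's exons and to the size of the library. Among the tested members the mean FPKM in NC was still lower for longer genes (Spearman's rho -0.44, against 0.15 over all tested genes). Orders of genes by level are therefore approximate. In NC, group means ran from 0.141 FPKM (MRPS24) to 46.3 FPKM (MRPL3), and 50 of the 78 genes were at 10 FPKM or more and 68 at 5 or more. MRPL3, a protein near the catalytic centre, headed the large subunit with 43.8, 43.4 and 51.7 FPKM in NC. It was followed by MRPL45 (means 41.4), a protein of the tunnel exit, by MRPL18 (38.2) and by MRPL58 (32.8), a peptidyl-tRNA hydrolase built into the subunit. In the small subunit MRPS34 (40.0), MRPS35 (33.9), MRPS18B (31.7) and MRPS10 (31.3) were highest. Libraries of neighbours in these orders overlapped, except those of MRPL18 (lowest 37.0) and MRPL58 (highest 36.3) in NC. The 2 lowest genes of each subunit were MRPL46 (1.09), MRPL38 (1.45), MRPS17 (2.12) and MRPS24, which had only 5 to 11 reads in each library. Each of them shares exon bases with a protein-coding gene on the same strand (11.3%, 37.5%, 21.8% and 23.2%, in this order). How reads in such exons were counted is not given, and their part in these low levels was not tested. Of these genes with the highest and lowest levels, MRPL3 (log2 fold change -0.10), MRPL18 (0.09), MRPS10 (-0.04) and MRPL46 (0.16) were not called between the groups. MRPS35 (0.11) and MRPL38 (0.39) were not called either, but were without NC 3 (adjusted p = 0.0260, limma) and without siPSCA 3 (adjusted p = 0.0427, limma), respectively. With the GC and length trend removed, MRPL46 (0.44, adjusted p = 0.0186, limma) and MRPS35 (0.37, adjusted p = 0.000951, limma) were called higher, and MRPL38 turned to -0.12.

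**Figure D1:**
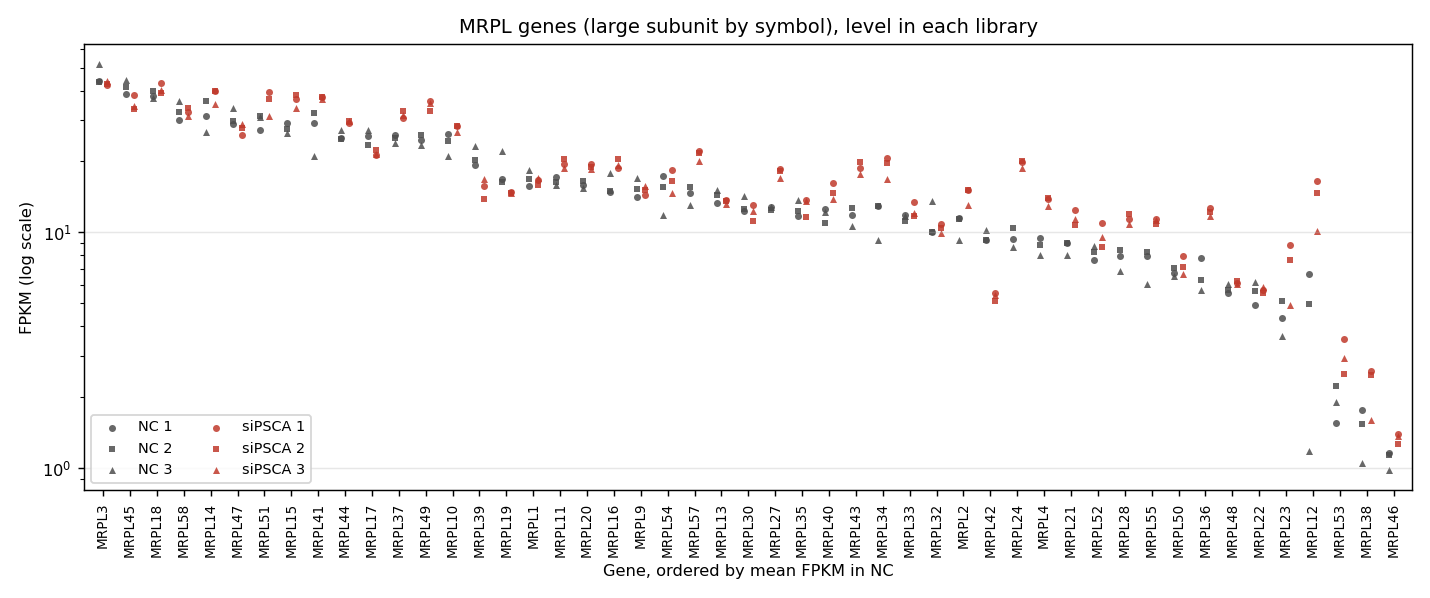
Level of each of the 49 MRPL genes in each of the 6 libraries, in FPKM on a log axis, ordered by the mean in NC; grey marks are NC 1 to 3 and red marks are siPSCA 1 to 3, with no averages drawn. Most genes lie between 5 and 50 FPKM; MRPL12 and MRPL24 are higher and MRPL42 lower in all 3 siPSCA libraries, and NC 3 lies lowest for MRPL12.

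**Figure D2:**
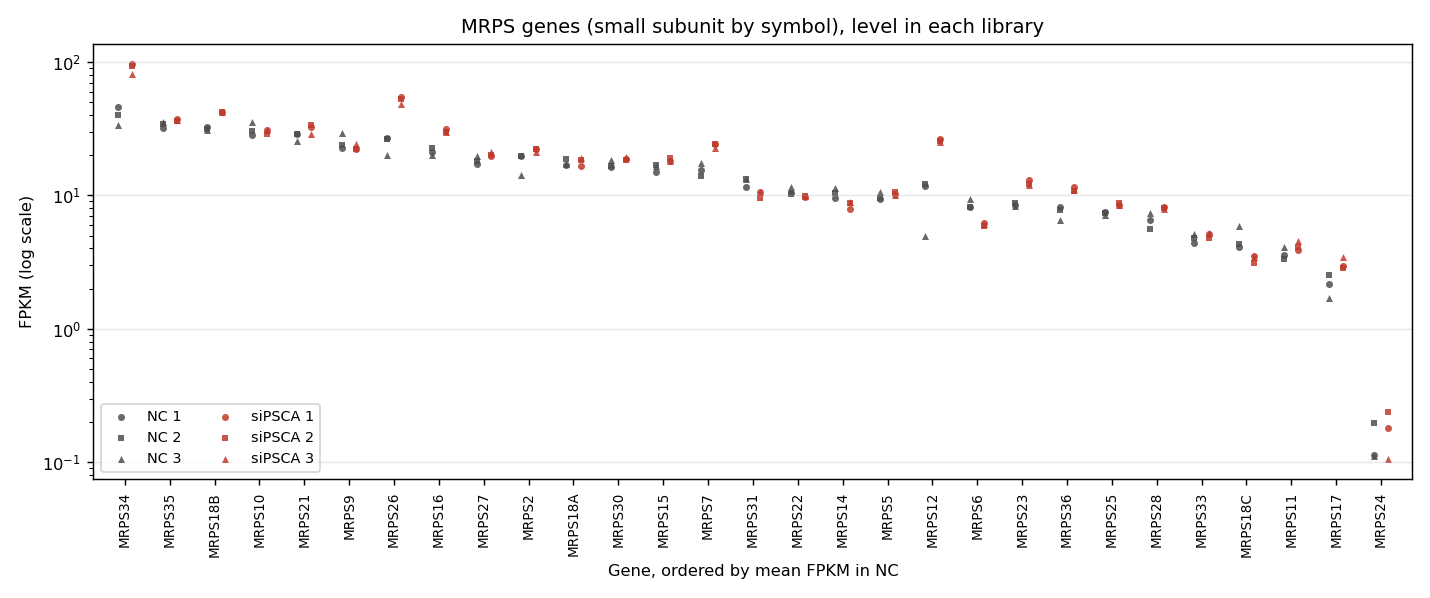
Level of each of the 29 MRPS genes in each of the 6 libraries, in FPKM on a log axis, ordered by the mean in NC, with marks as for the MRPL genes. MRPS34, MRPS26 and MRPS12 are higher in all 3 siPSCA libraries, and MRPS24 lies under 0.3 FPKM in all 6.

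More mitochondrial ribosomal protein genes were higher than lower after siPSCA. Of the 77 tested (a mean of at least 1 FPKM, which only MRPS24 missed), 33 rose (42.9%) and 8 fell (10.4%) at an adjusted p under 0.05 in limma, and 36 passed in neither direction. Over all 13796 genes tested, 26.6% rose and 24.2% fell, and over the 11079 tested protein-coding genes 30.9% rose and 25.2% fell. The libraries of the groups did not overlap for 51 of the members: siPSCA lay above NC for 40 and below it for 11, where 33.7% and 30.8% of all tested genes did so. The median log2 fold change was 0.20 over the members and 0.01 over all tested genes. A log2 fold change of 0.5 was passed upward by 15 members (19.5%, against 15.5% of all tested genes) and downward by 1 (1.30%, against 11.5%). As these are bulk samples, fewer cells of a type and less RNA per cell cannot be told apart. The counts moved with single libraries: 22 rose without siPSCA 1 and 23 without siPSCA 2 (16.7% and 17.4% of all tested genes), and 39 without NC 3 (29.1%). Of the falls, 3 were left without siPSCA 2 (16.9% of all tested genes) and 4 each without NC 2 (20.0%), siPSCA 1 (16.9%) or siPSCA 3 (19.7%).

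The 6 largest rises were those of MRPL12, MRPS12, MRPS34, MRPS26, MRPL24 and MRPL36. MRPL12, which forms the flexible stalk of the large subunit that receives translation factors (chr17:81703357-81707526), was at 6.66, 4.97 and 1.19 FPKM in NC and at 16.4, 14.7 and 10.1 FPKM in siPSCA. NC 3 was far below the other NC libraries, and the groups did not overlap. The log2 fold change was 1.64 (SE 0.47, adjusted p = 0.0279, limma), and 1.10 without NC 3 (adjusted p = 0.00715). The call was lost without siPSCA 1 (adjusted p = 0.0909) or siPSCA 2 (adjusted p = 0.0813), and with no minimum FPKM (adjusted p = 0.0768). Of the exon bases of MRPL12, 68.2% are shared with the readthrough gene AC139530.2 on the same strand, which is listed at 0 reads in all 6 libraries.

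MRPS12, a protein of the decoding centre (chr19:38930548-38933162), was at 11.8, 12.2 and 4.98 FPKM in NC and at 26.3, 25.6 and 24.99 FPKM in siPSCA. Here too NC 3 was the lowest library by a wide margin, whereas the siPSCA libraries lay close together. The log2 fold change was 1.41 (SE 0.30, adjusted p = 0.0107, limma), and 1.03 without NC 3 (adjusted p = 0.000112).

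MRPS34 and MRPS26, both small-subunit proteins found only in mitochondria, had high levels, with MRPS34 the most abundant MRPS gene in NC. MRPS34 (chr16:1771890-1773155) was at 45.9, 40.2 and 34.0 FPKM in NC and at 96.9, 93.6 and 80.6 in siPSCA, a log2 fold change of 1.16 (SE 0.12, adjusted p = 0.00138, limma). MRPS26 (chr20:3045945-3048254) was at 27.1, 26.3 and 19.9 FPKM in NC and at 54.7, 52.6 and 48.7 in siPSCA, a log2 fold change of 1.07 (SE 0.12, adjusted p = 0.00159, limma). In both genes every siPSCA library was far above every NC library. MRPL24, a protein at the rim of the exit tunnel (chr1:156737303-156741590), went from 9.37, 10.5 and 8.63 to 19.9, 20.1 and 18.7 FPKM, a log2 fold change of 0.98 (SE 0.08, adjusted p = 0.000695, limma). MRPL36, a small zinc-binding protein of the large subunit (chr5:1798386-1801366), went from 7.77, 6.30 and 5.70 to 12.6, 12.2 and 11.7 FPKM, a log2 fold change of 0.81 (SE 0.10, adjusted p = 0.00217, limma). The spread within each group of these 4 genes was small beside the distance between the groups.

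The 8 falls were smaller than these rises, with MRPL42 as the largest. MRPL42, a large-subunit protein found only in mitochondria (chr12:93467488-93516213), was at 9.25, 9.31 and 10.3 FPKM in NC and at 5.55, 5.12 and 5.44 FPKM in siPSCA. The groups were far apart, and the log2 fold change was -0.74 (SE 0.06, adjusted p = 0.000767, limma). Its exons span 16393 bases, so its FPKM averages over a long annotated model. MRPS6 fell from 8.59 ± 0.736 to 6.06 ± 0.142 FPKM (SD, n = 3; log2 fold change -0.44). It shares 6.35% of its exon bases with SLC5A3 on the same strand, which also fell (-0.71, adjusted p = 0.000959, limma). The part of shared reads in the fall of MRPS6 was not tested. MRPL39, a large-subunit protein related to a tRNA synthetase, fell from 21.0 ± 2.11 to 15.5 ± 1.52 FPKM (log2 fold change -0.42). MRPS18C (-0.39), MRPS31 (-0.28), MRPS14 (-0.26), MRPL45 (-0.22) and MRPL17 (-0.22) also fell. Leaving out single libraries ended the calls on MRPS18C (NC 2 or any siPSCA library, adjusted p from 0.0537 to 0.119, limma), MRPS31 (NC 2, siPSCA 1 or siPSCA 2, from 0.0504 to 0.073), MRPS14 (any library but NC 1, from 0.0513 to 0.118), MRPL45 (any but NC 1 or siPSCA 1, from 0.0701 to 0.148) and MRPL17 (NC 1 or any siPSCA library, from 0.0751 to 0.101).

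The other landmark members differed among each other. MRPL11, at the base of the stalk, rose from 16.5 ± 0.657 to 19.6 ± 0.823 FPKM (SD, n = 3; log2 fold change 0.24), a call that ended without siPSCA 1 (adjusted p = 0.0509, limma) or siPSCA 2 (adjusted p = 0.0602, limma). MRPL58 was at 32.8 ± 3.18 FPKM in NC and 32.4 ± 1.26 in siPSCA (log2 fold change -0.01, SE 0.08). The 3 MRPS18 genes are human relatives of 1 bacterial protein, and each of their products takes a different place in the ribosome, that of MRPS18A in the large subunit. MRPS18B rose from 31.7 ± 0.895 to 42.3 ± 0.289 FPKM (log2 fold change 0.40), MRPS18C fell as given above, and MRPS18A had a log2 fold change of 0.04 (SE 0.07, adjusted p = 0.687, limma). MRPS18C shares 40.2% of its exon bases with ABRAXAS1 on the opposite strand, which fell as well (log2 fold change -0.39), and MRPS18A shares 47.0% with RSPH9. MRPS30, whose product also sits in the large subunit, had a log2 fold change of 0.13 (SE 0.06, adjusted p = 0.124, limma), and 0.18 without NC 3 (adjusted p = 0.0112). MRPS36 is now known as a component of the 2-oxoglutarate dehydrogenase complex in place of a ribosomal protein, and it rose from 7.51 ± 0.888 to 11.1 ± 0.330 FPKM (log2 fold change 0.51).

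The large and the small subunit gave like counts. Of 49 MRPL genes tested 22 rose and 4 fell (44.9% and 8.16%), with a median log2 fold change of 0.24. Of 28 MRPS genes 11 rose and 4 fell (39.3% and 14.3%), with a median of 0.17. Over all tested genes 26.6% rose and 24.2% fell, to be read beside each share in this paragraph. With subunits taken from the uniform protein nomenclature, which places MRPS18A and MRPS30 in the large subunit and leaves MRPS36 out, 22 of 51 large-subunit genes rose and 4 fell (median 0.21), and 10 of 25 small-subunit genes rose and 4 fell (median 0.18). Of the genes that this nomenclature names after a bacterial protein, 19 of 45 rose and 4 fell (42.2% and 8.89%, median 0.21). Those it names as mitochondrial, among which it counts MRPS18A and MRPS18B, gave like shares. Of these, 13 of 31 rose and 4 fell (41.9% and 12.9%, median 0.18). None of these differences was tested.

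The summed FPKM of each subunit was higher in siPSCA, and that of the small subunit by more. The MRPL sum was 791, 808 and 798 FPKM in NC and 945.5, 919 and 885 FPKM in siPSCA, and the MRPS sum was 445, 451 and 442 FPKM in NC and 597, 586 and 570 FPKM in siPSCA. Both sums were higher in each siPSCA library, 1.15-fold for MRPL and 1.31-fold for MRPS by group means. Their ratio was 1.78, 1.79 and 1.81 in NC and 1.58, 1.57 and 1.55 in siPSCA, without overlap. MRPS34 and MRPS26 together made up 56.1% of the difference in the MRPS sum. Without them the ratio was 2.13, 2.10 and 2.06 in NC and 2.12, 2.09 and 2.01 in siPSCA, and the groups overlapped. The choice of these 2 genes was made after their values were seen. The 78 genes took 0.319% to 0.329% of reads in NC and 0.368% to 0.383% in siPSCA.

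Fold changes moved with base composition. Among the 77 tested members, exonic GC content ran from 35.0% to 71.9% (median 48.3%), and Spearman's rho between GC content and log2 fold change was 0.72 across genes, which share the same 6 libraries and are not independent replicates. It was 0.67 over 13792 tested genes with a GC value, and 0.64 over the members without NC 3. At a GC content under 45%, 3 of 27 members rose and 6 fell (11.1% and 22.2%), where 4.36% of all tested genes of that range rose and 47.6% fell. From 45% to under 50%, 8 of 17 rose and 2 fell (47.1% and 11.8%, against 15.6% and 19.6%). From 50% to under 55%, 10 of 15 rose and 0 fell (66.7%, against 35.3% and 10.3%), and at 55% or more 12 of 18 rose and 0 fell (66.7%, against 59.0% and 2.99%). The share of members that rose was above that of all tested genes in each of the 4 ranges, which was not tested. NC 3 followed the same axis: it was the lowest NC library for 16 of 18 members at a GC content of 55% or more, and the highest for 22 of 27 under 45%. The median coefficient of variation was 8.59% in NC and 4.54% in siPSCA.

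**Figure D3:**
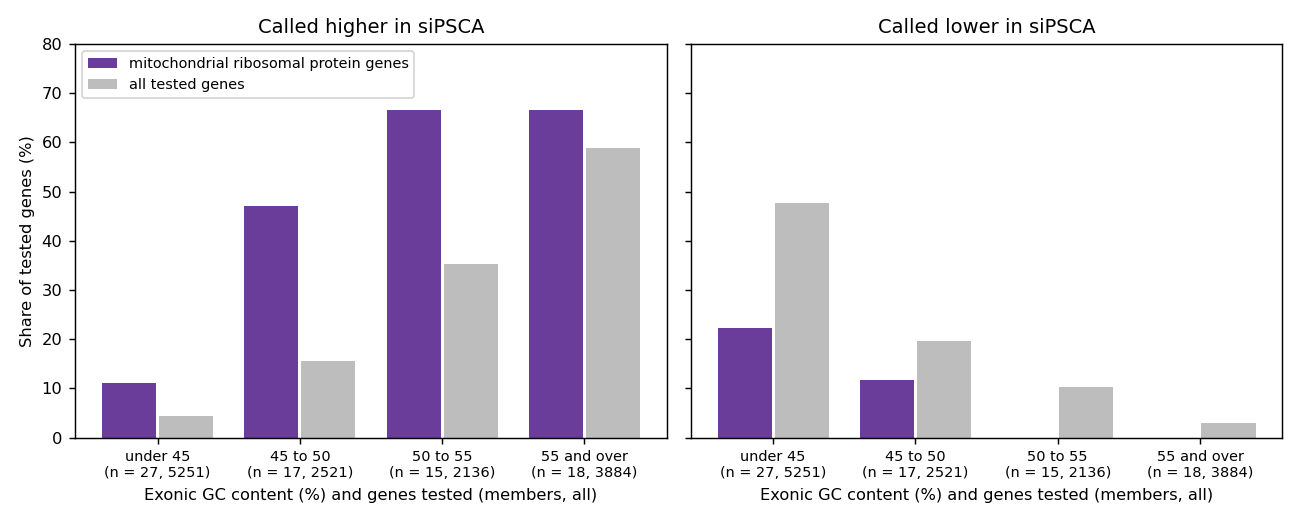
Share of tested genes that rose (left) or fell (right) at an adjusted p under 0.05 in limma, in %, by exonic GC content, for the mitochondrial ribosomal protein genes (purple) and all tested genes (grey), with the number of genes under each pair of bars. The purple bars for rises stand above the grey ones in all 4 ranges, and no member at 50% GC or more fell.

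After a smooth curve on GC content and gene length had been subtracted within every library, 34 members rose and 6 fell, where 21.3% of all tested genes rose and 18.2% fell, and the rho with GC content was -0.10. These were only in part the genes called before: of the 33 rises 22 were called higher again, 10 were not called and 1 was called lower, and of the 8 falls 3 were called lower again and 5 were not called. A further 12 members rose and 2 fell that had not been called. The order of the subunits turned, with medians of 0.16 for the large and 0.25 for the small subunit. MRPL12 (1.08), MRPS12 (1.06), MRPL24 (0.80), MRPS34 (0.60), MRPS26 (0.55) and MRPL36 (0.38) still rose on this scale, and MRPL42 (-0.32), MRPS6 (-0.27) and MRPL17 (-0.27) still fell. MRPS36 rose by more than before (0.84), and MRPS30 now passed (0.46). The falls of MRPL39, MRPS18C, MRPS31, MRPS14 and MRPL45 no longer passed, and neither did the rises of MRPL11 and MRPS17. MRPL41, the member with the highest GC content (71.9%), had a log2 fold change of 0.45 as deposited (27.4 ± 5.68 to 37.2 ± 0.486 FPKM, adjusted p = 0.0429, limma) and of -0.52 with the trend removed (adjusted p = 0.0140). Its call as deposited ended without NC 1 or any siPSCA library (adjusted p from 0.0584 to 0.111), so no direction can be given for it. The ratio of the MRPL and MRPS sums was 1.79 to 1.81 in NC and 1.56 to 1.60 in siPSCA with the trend removed. The part of base composition in the other results was not tested.

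**Figure D4:**
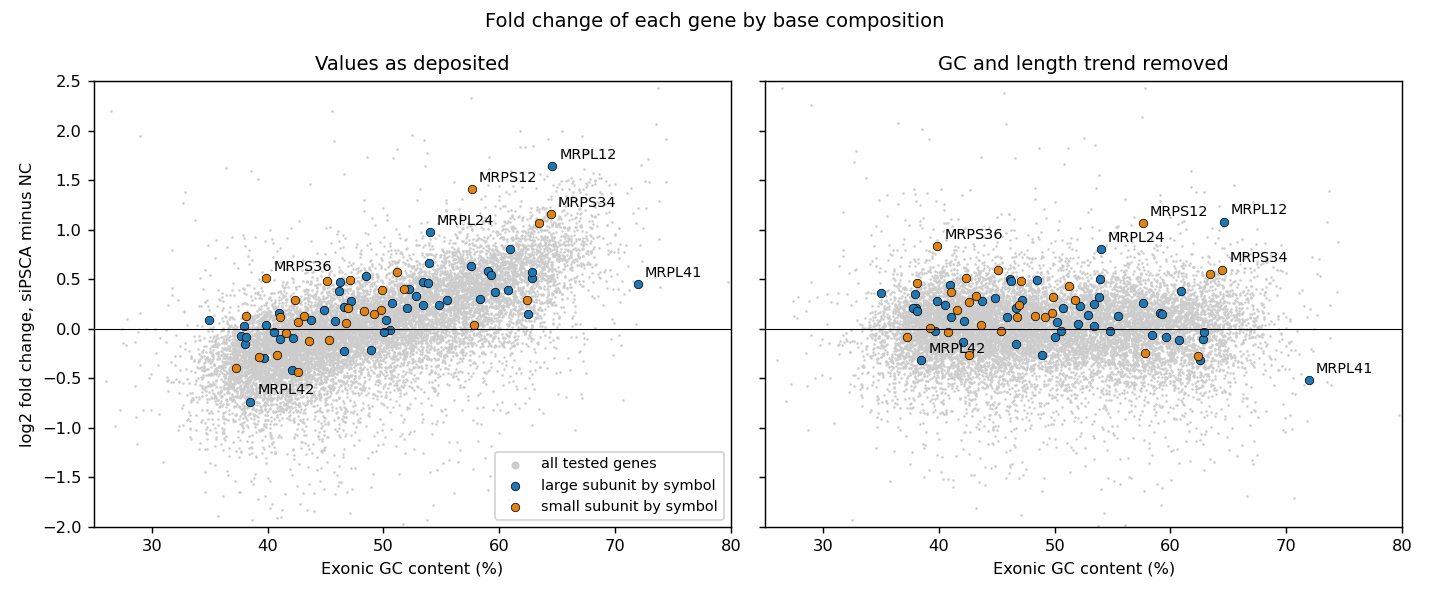
log2 fold change, siPSCA minus NC, against exonic GC content in % for all tested genes (grey) and the MRPL (blue) and MRPS (orange) genes, from the values as deposited (left) and with the GC and length trend removed (right); genes beyond the axes are not drawn. The members rise with GC content on the left (rho 0.72) and not on the right (rho -0.10); MRPL12, MRPS12, MRPL24 and MRPS34 stay above 0.5, and MRPL41 changes sign.

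Reads in shared exons could touch part of the members, as the sources do not say whether reads were counted by strand. Exon bases were shared with another annotated gene in 41 of the 78 members, and at least 25% of them in 10, which had a median of 5.62 FPKM in NC against 14.3 FPKM for the others. With these 10 set aside, 28 of 67 members rose and 7 fell (41.8% and 10.4%), with a median log2 fold change of 0.18. Of the 10 themselves 5 rose and 1 fell, with a median of 0.34. Over all tested genes 26.6% rose and 24.2% fell. Among the 10, MRPL53 shares 45.2% with CCDC142 on the same strand, and both rose (log2 fold changes 0.46 and 0.75), though MRPL53 was not called without NC 1, siPSCA 1 or siPSCA 3 (adjusted p from 0.0639 to 0.0843, limma). MRPS17, which rose by 0.39 and shares 27.0%, was no longer called without NC 1 or any siPSCA library (adjusted p from 0.0655 to 0.103, limma).

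Several mitoribosome proteins bear symbols outside the MRPL and MRPS pattern, and 3 of 5 rose, where 26.6% of all tested genes did. AURKAIP1, a small-subunit protein, went from 20.6, 18.2 and 7.96 to 50.2, 46.5 and 42.4 FPKM (log2 fold change 1.61, SE 0.32, adjusted p = 0.00880, limma), with NC 3 again lowest. GADD45GIP1, of the large subunit, rose from 21.6 ± 2.22 to 36.3 ± 1.48 FPKM (SD, n = 3; log2 fold change 0.72), and CHCHD1, of the small subunit, from 12.5 ± 0.218 to 17.6 ± 1.04 FPKM (0.46). DAP3 (0.11, adjusted p = 0.124, limma) and PTCD3 (-0.14, adjusted p = 0.0970), both of the small subunit, were not called, though DAP3 was without NC 3 (0.14, adjusted p = 0.0269) and PTCD3 without siPSCA 3 (-0.19, adjusted p = 0.0476).

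Factors that build or run the mitoribosome, or that make and process mitochondrial RNA, were followed in 3 lists. Of 28 genes listed as assembly factors 11 rose and 2 fell (39.3% and 7.14%, where 26.6% and 24.2% of all tested genes did). Their median log2 fold change was 0.14. The list also holds FASTKD5, which acts on mitochondrial messenger RNA and is among the rises. It holds NSUN3 as well, which acts on a transfer RNA and was not called. MPV17L2, which takes part in ribosome assembly, had the largest rise, from 5.32 ± 0.962 to 12.6 ± 0.991 FPKM (1.12), and METTL15, a methyltransferase of the small ribosomal RNA, the largest fall, from 6.49 ± 0.890 to 4.38 ± 0.244 FPKM (-0.47). Of 16 translation factors and activators 3 rose and 3 fell (18.8% each, median -0.06), with TACO1, an activator of COX1 translation (0.43), and LRPPRC, which stabilises mitochondrial messenger RNAs (-0.41), at the ends. Of 13 genes listed for mitochondrial transcription and RNA processing, with the protease LONP1 among them, 3 rose and 4 fell (23.1% and 30.8%, median -0.05). POLRMT, TFAM and MTERF1, which act in transcription, are among these called genes. At the ends were HSD17B10, a subunit of mitochondrial RNase P (0.81), and PNPT1, an RNA-degrading enzyme (-0.29). The call on PNPT1 ended without NC 2, siPSCA 1 or siPSCA 2 (adjusted p from 0.0629 to 0.0772, limma). With the GC and length trend removed, METTL15 (-0.11), LRPPRC (-0.08), PNPT1 (-0.02) and TACO1 (0.23) were not called. On that scale AURKAIP1 (0.85), GADD45GIP1 (0.29), CHCHD1 (0.66), MPV17L2 (0.63) and HSD17B10 (0.56) still rose. DAP3 (0.15, adjusted p = 0.0198, limma) was now called higher, and PTCD3 turned to 0.16 and was called higher (adjusted p = 0.0461, limma). All 5 mitoribosome proteins with other symbols thus rose on that scale, where 21.3% of all tested genes did.

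The genes of the cytosolic ribosome did not show the same counts. Of 77 tested cytosolic ribosomal protein genes (of 82), 12 rose and 29 fell (15.6% and 37.7%), with a median log2 fold change of -0.08, and with the GC and length trend removed 9 rose and 35 fell. The members and the cytosolic genes were set side by side as counts, and their difference was not tested.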

How the data were processed

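FPKM values of 58735 genes in 6 libraries were deposited by the authors as 1 table, made with the NEBNext Ultra RNA kit and paired-end sequencing. GRCh38 is the build in the submitters' processing notes. The aligner, the counting program and its strand setting are not given in the sources used here. Gene identifiers, positions and exon lengths were those of GENCODE release 29. Reads per gene were recovered from FPKM and gene length, whose product came in whole steps for 100% of values (within 0.01), and GC content was taken from the exons of the GENCODE transcripts.

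The test was that of limma 3.58.1 in R 4.3.3 (lmFit, eBayes with trend, 2-sided) on log2(FPKM + 1), with group as the only term, over genes with a mean of at least 1 FPKM, and with Python 3.11.15 and pandas 2.3.3. The pseudocount understates the change of low genes. Adjustment was by Benjamini and Hochberg over all 13796 genes tested. Every adjusted p comes from limma. Trends were natural splines (5 degrees of freedom each) of GC content and log2 length. On simulated data with 200 of 13796 genes changed, the fit called 165 at a log2 change of 1 (9 false calls) and 53 at 0.5 (5 false calls). The simulation used the same dispersion for every gene, no trend with GC content and no library that stood apart. Its counts therefore show that the fit runs properly and do not give error rates for these data.

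The members and the gene lists were chosen with earlier results of these data known. Genes are named by rule: the 4 highest and 2 lowest in NC of each subunit, the 6 largest rises and falls among called members, 10 landmark members, the 5 mitoribosome proteins with other symbols, and the largest called rise and fall of each factor list. MRPL17, MRPL53 and the partner genes were named after their values were seen. Other settings tried were a pseudocount of 0.1, no minimum FPKM, TPM, quantile normalization, limma-voom on recovered reads, trend removal, a replicate block and leaving out each library.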

Additional observations from a re-analysis of the deposited data

How the results depend on the processing

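The number of members that rose (33) stayed within 1.5 times of that count in each refit with the threshold on adjusted p. It ran from 22 to 39 when 1 library was left out, where 16.7% to 29.1% of all tested genes rose. It was 15 when calls needed p under 0.05 unadjusted together with a change beyond 0.5 on the log2 scale, where 1 member fell. The share of all tested genes under these 2 conditions together is not given. A change beyond 0.5 alone was passed upward by 15.5% and downward by 11.5% of all tested genes. The 8 falls became 5 under limma-voom and 4 with no minimum FPKM, where 23.4% and 8.21% of all tested genes fell. They became 3 to 7 when 1 library was left out, where 16.9% to 24.7% of all tested genes fell. The large-subunit median (0.24) moved to 0.16 with the GC and length trend removed, with or without the replicate block and also with NC 3 left out (a setting added after the values were seen), and to 0.17 under quantile normalization. The small-subunit median (0.17) moved to 0.25 with the trend removed, with or without the block, to 0.23 with NC 3 left out as well, to 0.22 under limma-voom and to 0.11 under quantile normalization. With the trend removed, MRPL41 turned to -0.52 (also with the block, and -0.41 with NC 3 left out), MRPS31 to 0.0067 (also with the block), PTCD3 to 0.16 and MRPL38, called in neither fit, to -0.12. With NC 3 left out as well, MRPL3 turned to 0.16, MRPS10 to 0.25 and MRPS18C to 0.022, and with the block and the trend removed MRPS18A was called at -0.25. Trend removal changes the values by base composition and length through its own construction. The other settings do not use base composition, and what lies behind their differences was not tested. Whether replicate numbers pair the libraries is not given. Deviations from the group means correlated at 0.10, 0.01 and 0.13 for the numbers 1, 2 and 3, and not every library correlated best with its own number. With 3 libraries in each group these correlations cannot settle it. With the replicate block 35 members rose and 6 fell, where 25.89% and 22.85% of all tested genes did. Of the named genes, MRPL45 (adjusted p = 0.0917, limma) and MRPS17 (adjusted p = 0.0742) were then not called and MRPL38 was (adjusted p = 0.0240). With no minimum FPKM, MRPL12, MRPL41, MRPL45, MRPS14, MRPS17, MRPS18C and PNPT1 were not called (adjusted p from 0.0542 to 0.105, limma). The reads behind a member set its precision: MRPS24, with 5 to 11 reads in each library, was not tested.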

Other observations

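The 2 ribosomal RNAs of the mitoribosome are mitochondrial transcripts. MT-RNR2, the large-subunit RNA, was at 4969, 5067 and 5110 FPKM in NC and at 4178, 4131 and 4282 FPKM in siPSCA, a log2 fold change of -0.27 (SE 0.05, adjusted p = 0.00547, limma) that was not called with the GC and length trend removed (-0.04, adjusted p = 0.712). MT-RNR1, the small-subunit RNA, was at 1279, 1168 and 821 FPKM in NC and at 1495, 1400 and 1460 FPKM in siPSCA, a log2 fold change of 0.44 that was not called (SE 0.16, adjusted p = 0.0625), but was without NC 3 (0.25, adjusted p = 0.0105) and with the trend removed (0.61, adjusted p = 0.0395). The sources do not say how ribosomal RNA was treated in library preparation, so these levels depend on an unknown step.

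The table also holds 75 pseudogenes of the members, 46 of them at 0 reads. The other 29 took 1933 reads over the 6 libraries, 0.553% of the 349615 reads of the members. Most of these reads lay on MRPL45P2 (830 reads, 12.2% of those of MRPL45) and MRPS31P5 (782 reads, 30.8% of those of MRPS31). How reads that fit both a gene and its copy were counted is not given in the sources used here. The values of MRPL45 and MRPS31 are therefore uncertain, to an extent that these read counts do not measure.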
